A study of Mus musculus with 8 samples.

Results

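The genes described here mark the endothelial cells of the liver sinusoids or carry the Wnt signals that liver endothelium sends to its neighbours. They were chosen by symbol, from a list of 10 mouse genes, and all 10 are among the 24421 gene symbols of the count table. All 10 also passed the filter on low counts, with 12985 genes in all. The samples were livers of C57BL/6N mice aged 8 to 10 weeks, perfused with cold saline and profiled by stranded poly(A) RNA sequencing. The CAPZ_KO group held 4 libraries from Albumin-CreERT2;Capzb-fl/fl mice that received tamoxifen, which switches on a Cre recombinase made under the albumin promoter. The protocol gives 5 daily tamoxifen injections from an age of 4 to 6 weeks. The WT group also held 4 libraries, from Capzb-fl/fl mice given tamoxifen or from Albumin-CreERT2;Capzb-fl/fl mice left uninjected, and the labels do not say which library is which. All animals therefore carried floxed Capzb, which encodes a subunit of the protein that caps growing actin filaments, and exposure to tamoxifen cannot be told apart from its deletion. The albumin promoter drives Cre in hepatocytes, so by design the deletion falls in hepatocytes and not in the endothelial cells that the 10 genes mark. The question named by the series is what actin filament turnover does to organ growth and to the upkeep of cell identity.

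Liver sinusoids are lined by a discontinuous endothelium with open pores and little basement membrane, whose cells clear waste molecules from blood through scavenger receptors. Endothelial cells around the central vein and in the neighbouring sinusoids secrete Wnt2, Wnt9b and the Wnt amplifier Rspo3. These signals keep beta-catenin active in nearby hepatocytes and so maintain the pericentral genes, such as those of glutamine synthetase and several cytochromes P450. When sinusoidal cells lose their specialised state, a change called capillarisation, they are known to gain proteins of ordinary capillaries and of basement membrane.

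Total counts were 13122355 to 16984971 in the CAPZ_KO libraries and 12060350 to 18916315 in the WT libraries. Capzb averaged 72.5 ± 6.80 CPM in CAPZ_KO and 120.2 ± 13.4 CPM in WT (SD, n = 4 each), with counts taken over the whole gene. CPM here are counts relative to library size after scaling by TMM, edgeR's trimmed mean of log ratios. For Capzb the edgeR quasi-likelihood test gave a log2 fold change of -0.73 ± 0.125 (SE, adjusted p = 0.00134). Permuting the group names in an exact two-sided test gave p = 0.0286, and no arrangement among 70 can give less. Scaling by library size alone left Capzb at a log2 fold change of -0.10 (adjusted p = 0.442), and it moved the median of all genes to 0.62 from near 0 under TMM. Albumin, the most abundant hepatocyte product, took 3.49% to 5.09% of the counts in CAPZ_KO and 9.80% to 14.1% in WT. Libraries CAPZ_KO 4 and WT 4 carried Xist and no Y-linked counts, and the others the reverse. The labels do not state that each library is a separate animal, so the spread behind each p-value may be partly technical. In whole liver, a smaller number of endothelial cells and less RNA per cell cannot be told apart.

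The promoters of Stab2, Kdr and Wnt2 are shown because they stand for the main roles in the list: a scavenger receptor, the VEGF receptor and a secreted Wnt. Transcription factors of the ETS family are known as general regulators of endothelial genes. RefSeq promoters on GRCm38.p6, from 250 bases before to 50 bases after the start site, were found for 6 of the 10 genes. Each is printed 5′ to 3′ on the gene's own strand, which is the minus strand for all 3, with a match to CAGGAA or CCGGAA on either strand in capitals. Stab2 is at chr10:87007893-87008192, Kdr at chr5:75978406-75978705 and Wnt2 at chr6:18030396-18030695.
Stab2: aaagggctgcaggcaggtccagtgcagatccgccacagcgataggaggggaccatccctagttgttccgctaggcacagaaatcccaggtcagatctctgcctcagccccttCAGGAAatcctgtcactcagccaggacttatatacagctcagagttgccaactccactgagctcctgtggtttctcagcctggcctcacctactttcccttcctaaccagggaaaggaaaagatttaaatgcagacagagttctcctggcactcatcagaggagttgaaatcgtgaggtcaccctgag
Kdr: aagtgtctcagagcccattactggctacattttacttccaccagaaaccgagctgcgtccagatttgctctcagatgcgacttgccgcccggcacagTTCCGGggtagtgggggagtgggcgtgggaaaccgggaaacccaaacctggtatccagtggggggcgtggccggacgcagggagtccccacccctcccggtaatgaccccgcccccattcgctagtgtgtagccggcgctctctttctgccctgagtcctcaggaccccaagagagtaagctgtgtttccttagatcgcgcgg
Wnt2: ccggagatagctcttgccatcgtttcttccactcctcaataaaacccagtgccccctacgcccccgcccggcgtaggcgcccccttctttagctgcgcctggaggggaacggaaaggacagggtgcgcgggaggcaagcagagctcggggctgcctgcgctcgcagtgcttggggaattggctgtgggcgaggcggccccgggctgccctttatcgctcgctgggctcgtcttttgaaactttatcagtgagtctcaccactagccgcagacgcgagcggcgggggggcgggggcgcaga
The Stab2 match starts 138 bases before the start site, and the Kdr match, on the opposite strand, 153 bases before it. Clec4g held 1 match and Stab1 held 2, while the windows of Wnt2 and Wnt9b held 0. These letters occur in 41.4% of the 32841 mouse promoters of the same length, so a match is common. AGATAA, the only form of the GATA motif searched for, occurred on either strand in none of the 6 promoters and in 11.2% of all promoters. Other forms of the motif were not searched for. A match describes letters in the window and is not a measured binding site.

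Of the 10 genes, Pecam1 and Cdh5 were higher in CAPZ_KO, 0 were lower and 8 did not pass an adjusted p under 0.05. Over all genes tested, 22.4% were called higher, 19.0% lower and 41.4% in either direction, so 2 of 10 is close to the background. The median log2 fold change was 0.41 over the 10 genes and -0.003 over all genes tested. Both called genes encode proteins of endothelial cell contacts. At an unadjusted p under 0.05 the edgeR test gave 4 higher and 0 lower. The share over all genes was not taken at that threshold, but it is at least the 22.4% higher and 19.0% lower given above. At an adjusted p under 0.05 DESeq2 called 3 higher and 0 lower, beside 3023 higher and 2847 lower over all genes. By limma-voom 2 were higher and 0 lower, beside 2919 higher and 2437 lower over all genes. For Pecam1 and Rspo3 the lowest CAPZ_KO library exceeded the highest WT library, a separation found in that direction for 22.1% of genes tested. The reverse separation was found for 0 of the 10 genes and for 18.2% of genes tested, and the groups did not overlap for 40.3% of all genes.

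**Figure D1:**
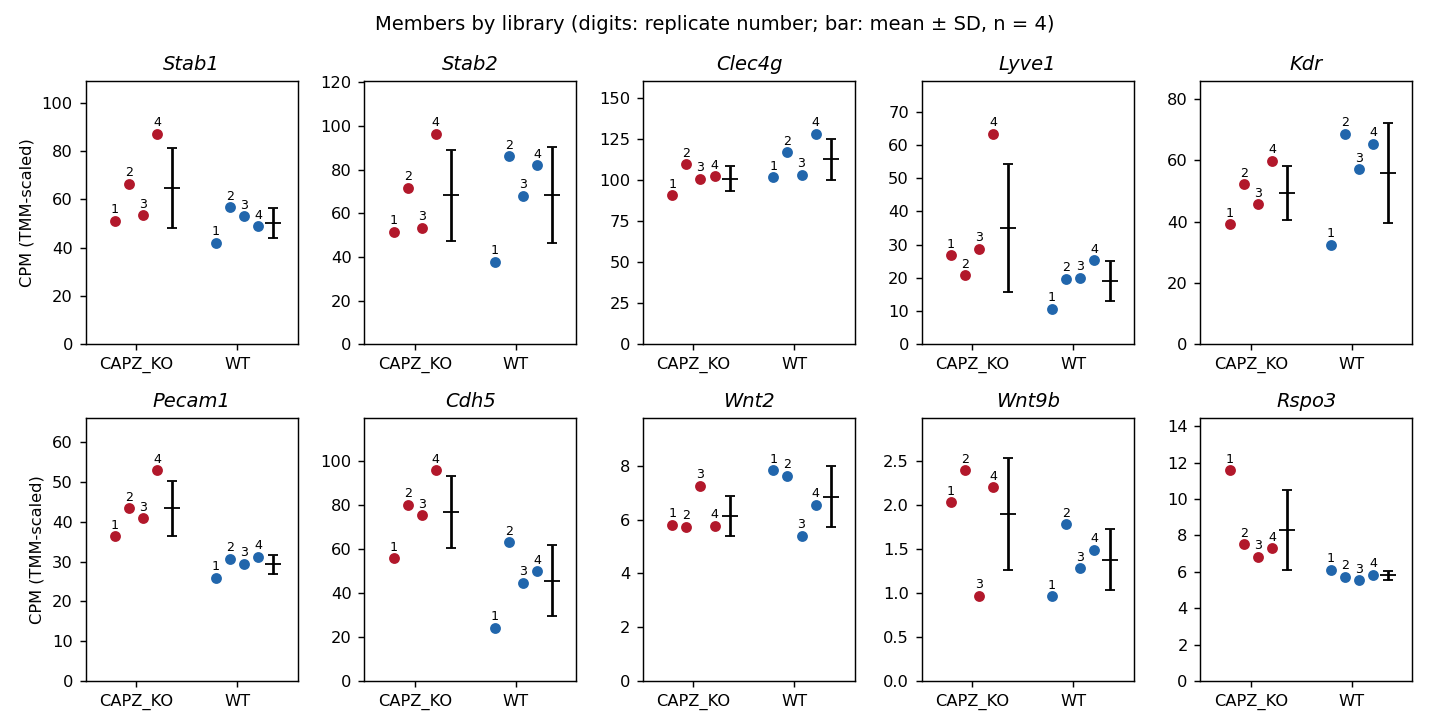
TMM-scaled CPM (y axis, linear, from 0) of the 10 genes in the 4 CAPZ_KO libraries (red, left) and the 4 WT libraries (blue, right), with the replicate number above each point and a bar for the mean ± SD. Pecam1 and Rspo3 have all CAPZ_KO points above all WT points, and the groups overlap for the other 8 genes.

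By edgeR under TMM, the scavenger and uptake receptors that define the sinusoidal cell gave no call in either direction. Some alternatives called Lyve1 higher, as given below. Stab1 encodes stabilin-1, a scavenger receptor of sinusoidal cells that some macrophages also make (chromosome 14, 31139013 to 31168641, GRCm38, minus strand). It stood at 51.1, 66.4, 53.3 and 87.1 CPM in CAPZ_KO 1 to 4 and at 42.0, 56.6, 52.9 and 48.8 CPM in WT 1 to 4. CAPZ_KO 2 and 4 exceeded every WT library, and the other CAPZ_KO libraries lay within the WT range. The fold was 1.29 (95% interval 0.973 to 1.70), with an adjusted p of 0.133 by edgeR. Exons of Stab1 overlap those of Nt5dc2 on the opposite strand, which held 99 to 182 counts in CAPZ_KO and 58 to 76 in WT. Stab1 itself held 882 to 1704 counts in CAPZ_KO and 392 to 860 in WT.

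Stab2 encodes stabilin-2, the receptor by which sinusoidal cells clear hyaluronan (chromosome 10, 86841198 to 87008025, minus strand). It stood at 51.6, 71.8, 53.5 and 96.5 CPM in CAPZ_KO and at 37.8, 86.3, 68.1 and 82.1 CPM in WT. Both groups ran from low to high over almost the same range, with CAPZ_KO 4 at the top and WT 1 at the bottom. The means were 68.4 ± 20.9 CPM in CAPZ_KO and 68.6 ± 22.0 CPM in WT, and the interval of the fold, 0.650 to 1.52, allows a moderate change either way. Clec4g, which encodes the C-type lectin LSECtin, is almost restricted to sinusoidal cells in liver (chromosome 8, 3707064 to 3720651, minus strand). It stood at 91.0, 109.7, 100.9 and 102.3 CPM in CAPZ_KO and at 101.7, 117.2, 103.3 and 128.4 CPM in WT. Clec4g varied little within groups, with a coefficient of variation of 7.62% in CAPZ_KO and 11.2% in WT, and the groups overlapped. Its fold of 0.897 (95% interval 0.743 to 1.08, adjusted p = 0.326 by edgeR) had the narrowest interval of the 4 uptake receptors.

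Lyve1, a hyaluronan receptor of sinusoidal and lymphatic endothelium and of some macrophages, spread most of the 10 genes among CAPZ_KO libraries, with a coefficient of variation of 55.1%, against 31.8% in WT (chromosome 7, 110850607 to 110863239, minus strand). It stood at 26.8, 20.8, 28.8 and 63.3 CPM in CAPZ_KO and at 10.7, 19.7, 20.0 and 25.2 CPM in WT. CAPZ_KO 4 was far above the rest, WT 1 far below, and CAPZ_KO 2 lay within the WT range. The fold was 1.84 (95% interval 1.04 to 3.25), and the adjusted p of 0.0809 by edgeR did not pass. Without CAPZ_KO 4 the log2 fold change was 0.42 (adjusted p = 0.225), against 0.88 with all libraries. With the sex of the libraries as a term it was 0.78 and passed (adjusted p = 0.0207 by edgeR), and DESeq2 also called it (adjusted p = 0.0389). With the replicate number as a block it was 0.81 and passed as well (adjusted p = 0.0212 by edgeR). Of 5 lymphatic markers 4 were tested, Flt4 was called higher and 0 were called lower, and Ccl21a, a chemokine that defines lymphatic endothelium, had 0 counts in all libraries. The summed lymphatic list ran from 128.4 to 164.1 CPM in CAPZ_KO and from 87.3 to 141.0 CPM in WT. Flt4 is also in the sinusoidal list and Reln in the stellate list, so this sum does not measure lymphatic endothelium alone.

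Kdr encodes the main signalling receptor for VEGF-A on endothelial cells (chromosome 5, 75932827 to 75978458, minus strand). It stood at 39.2, 52.1, 45.7 and 59.8 CPM in CAPZ_KO and at 32.5, 68.6, 57.1 and 65.4 CPM in WT. The lowest value of all was WT 1 and the other 3 WT libraries included the 2 highest, so the groups overlapped. The fold was 0.879 (95% interval 0.620 to 1.25, adjusted p = 0.534 by edgeR). Its ligand gene Vegfa fell, with 36.2, 41.6, 32.5 and 32.1 CPM in CAPZ_KO and 67.6, 93.2, 107.1 and 90.6 CPM in WT. The 2 groups of Vegfa values were apart, at a log2 fold change of -1.33 ± 0.159 (SE, adjusted p = 0.000179 by edgeR). General hepatocyte markers, described below, had a median log2 fold change of -1.42. The other tested VEGF and angiopoietin ligands, 5 of 6, were not called, among them Vegfc at a log2 fold change of 0.47 (adjusted p = 0.188) and Angpt2 at -0.26 (adjusted p = 0.635).

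Pecam1 rose in CAPZ_KO. It encodes CD31, an adhesion protein at the contacts of endothelial cells that platelets and leukocytes also carry (chromosome 11, 106654217 to 106750628, minus strand). It stood at 36.4, 43.4, 40.9 and 52.9 CPM in CAPZ_KO and at 26.0, 30.7, 29.5 and 31.2 CPM in WT. Each CAPZ_KO library exceeded each WT library, and the WT libraries lay close together. The means were 43.4 ± 6.97 CPM in CAPZ_KO and 29.3 ± 2.38 CPM in WT (SD, n = 4 each), a fold of 1.48 (95% interval 1.19 to 1.83) with an adjusted p of 0.00896 by edgeR. With each library left out in turn the log2 fold change was 0.45 to 0.61 and the adjusted p 0.00909 to 0.0304.

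Cdh5 rose as well. It encodes VE-cadherin, the cadherin of endothelial junctions (chromosome 8, 104101625 to 104144511, plus strand). It stood at 56.0, 80.3, 75.6 and 95.9 CPM in CAPZ_KO and at 24.2, 63.2, 44.7 and 50.0 CPM in WT. CAPZ_KO 2 to 4 exceeded all WT libraries, CAPZ_KO 1 lay below WT 2, and WT 1 stood far below the rest. The fold was 1.68 (95% interval 1.12 to 2.54), with an adjusted p of 0.0451 by edgeR, just under the threshold. The adjusted p missed the threshold without WT 1 (0.0502, log2 fold change 0.54 against 0.75) and without any of CAPZ_KO 2, CAPZ_KO 3, CAPZ_KO 4, WT 3 and WT 4 (0.0661 to 0.112). It also missed it with no filter on low counts (0.0529). The call was kept by DESeq2 (adjusted p = 0.0220), by limma-voom (0.0402) and with the replicate number as a block (0.00412 by edgeR).

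Cells other than endothelium that carry some of these proteins differed between the groups too. Of 12 Kupffer cell markers, the resident macrophages of the sinusoids, 7 were higher and 0 lower, with summed levels of 2287 to 5423 CPM in CAPZ_KO and 1077 to 2656 CPM in WT. That count fell to 3 without CAPZ_KO 2 and to 4 without CAPZ_KO 4, WT 2 or WT 3. Monocyte and macrophage markers were higher for 8 of 10 and lower for 0, with sums of 1084 to 1560 CPM in CAPZ_KO and 326.0 to 506.5 CPM in WT. Platelet markers, of which 4 of 6 were tested, summed to 12.1 to 35.2 CPM in CAPZ_KO and 7.95 to 14.3 CPM in WT. Of these Pf4 (log2 fold change 1.04, adjusted p = 0.0164) and Itgb3 (1.17, adjusted p = 0.0410) were higher by edgeR. The Pf4 call was lost without CAPZ_KO 1 (adjusted p = 0.0503). The Itgb3 call was lost without any of CAPZ_KO 2, CAPZ_KO 4 and the 4 WT libraries (adjusted p 0.0582 to 0.104, with a log2 fold change of 0.68 without CAPZ_KO 4). The part of macrophages and platelets in the levels of Stab1, Lyve1 and Pecam1 was not tested.

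The secreted signals were the least abundant genes of the list. Wnt2 encodes a Wnt ligand of sinusoidal and central vein endothelium (chromosome 6, 17988940 to 18030585, minus strand). It stood at 5.81, 5.73, 7.26 and 5.78 CPM in CAPZ_KO and at 7.83, 7.63, 5.39 and 6.55 CPM in WT. CAPZ_KO 1, 2 and 4 lay close together and CAPZ_KO 3 above them, all within the WT range. The fold was 0.898 (95% interval 0.678 to 1.19, adjusted p = 0.520 by edgeR).

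Wnt9b encodes the other central vein Wnt ligand (chromosome 11, 103727364 to 103749821, minus strand). It stood at 2.03, 2.39, 0.968 and 2.20 CPM in CAPZ_KO and at 0.965, 1.78, 1.28 and 1.49 CPM in WT. CAPZ_KO 3 and WT 1 were equally low, and the other CAPZ_KO libraries exceeded all WT libraries. These levels rest on 16 to 48 counts per CAPZ_KO library and 9 to 27 per WT library, so the fold of 1.36 had a wide interval of 0.818 to 2.27 (adjusted p = 0.305 by edgeR).

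Rspo3 encodes an R-spondin, which raises the response of cells to Wnt by sparing its receptors from degradation, and is made by central vein endothelium (chromosome 10, 29452416 to 29535867, minus strand). It stood at 11.6, 7.52, 6.83 and 7.31 CPM in CAPZ_KO and at 6.11, 5.73, 5.54 and 5.83 CPM in WT. All CAPZ_KO libraries lay above all WT libraries, CAPZ_KO 1 stood well above the others, and the WT libraries were nearly equal. The coefficient of variation was 26.4% in CAPZ_KO and 4.16% in WT. The fold of 1.44 (95% interval 1.06 to 1.95) had an adjusted p of 0.0584 by edgeR and was not called. With upper-quartile factors in place of TMM it was called higher (log2 fold change 0.60, adjusted p = 0.0369 by edgeR). Without CAPZ_KO 1 the log2 fold change was 0.29 (adjusted p = 0.210), against 0.52 with all libraries. Stellate cells are known to make Rspo3 too, and 11 of 12 stellate and fibroblast markers were higher, with sums of 923.7 to 1431 CPM in CAPZ_KO and 378.3 to 459.7 CPM in WT. Their median deviation from the group mean was also largest in CAPZ_KO 1, at 0.56 on the log2 scale, and their part in the Rspo3 level was not tested.

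Scaling mattered for the direction of the genes that were not called. Under library size alone the log2 fold changes of Stab2, Clec4g, Kdr and Wnt2 were positive, at 0.60, 0.46, 0.42 and 0.47, against values of -0.01 to -0.19 under TMM. All 4 lay at or below the shift of 0.62 that this scaling gave the median gene. Stab1, Clec4g, Lyve1, Pecam1, Cdh5, Rspo3 and Wnt9b were called higher under it, 7 of 10, while 7665 genes were called higher and 700 lower in all, against 2913 and 2469 under TMM.

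Per kb of exon length (GENCODE vM21), Clec4g was the most abundant gene, at 41.0 ± 3.13 CPM per kb in CAPZ_KO and 45.7 ± 5.12 CPM per kb in WT (SD, n = 4 each). Cdh5 came next, at 18.3 ± 3.91 CPM per kb in CAPZ_KO and 10.8 ± 3.86 CPM per kb in WT. In CAPZ_KO the order went on with Lyve1, Stab2, Pecam1, Stab1 and Kdr, from 12.0 ± 6.59 to 5.45 ± 0.977 CPM per kb, and no neighbours from Cdh5 to Kdr differed beyond their SDs. In WT the order was Stab2, Lyve1, Kdr, Stab1 and Pecam1, from 7.83 ± 2.51 to 4.71 ± 0.383 CPM per kb, again with no neighbours beyond their SDs. Pecam1 thus stood above Stab1 and Kdr in CAPZ_KO and last of these markers in WT. The signals came below: Wnt2 was at 2.72 ± 0.329 CPM per kb in CAPZ_KO and 3.04 ± 0.498 CPM per kb in WT. Rspo3 was at 2.69 ± 0.711 CPM per kb in CAPZ_KO and 1.88 ± 0.0781 CPM per kb in WT. Wnt9b was the lowest, at 0.420 ± 0.141 CPM per kb in CAPZ_KO and 0.305 ± 0.0758 CPM per kb in WT. Wnt2 and Rspo3 did not differ beyond their SDs in CAPZ_KO, while in WT Wnt2 was above Rspo3.

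Certain libraries stood high or low for most of the 7 markers, from Stab1 to Cdh5, but not for the 3 ligands. Library CAPZ_KO 4 was the highest CAPZ_KO library for 6 of 7 markers and 0 of 3 ligands, and CAPZ_KO 1 was the lowest for 6 of 7 markers and 0 of 3 ligands. WT 1 was the lowest WT library for all 7 markers and, among the ligands, for Wnt9b, while for Wnt2 and Rspo3 it was the highest. The median deviation of the 10 genes from the group mean was 0.30 in CAPZ_KO 4, -0.24 in CAPZ_KO 1 and -0.29 in WT 1 on the log2 scale. The 14 further sinusoidal genes described below deviated the same way, by 0.28 in CAPZ_KO 4, -0.24 in CAPZ_KO 1 and -0.33 in WT 1. So did the 20 general endothelial genes, by 0.18, -0.23 and -0.13, and Kupffer cell markers, by 0.43, -0.59 and -0.86 in the same libraries. Whether these deviations share a source was not tested.

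**Figure D2:**
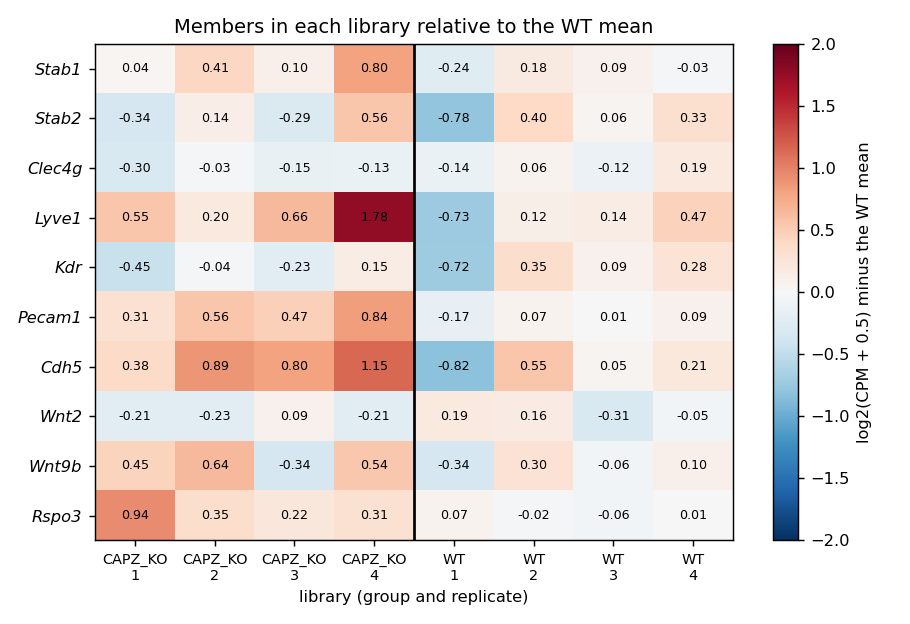
Log2(CPM + 0.5) of each gene (rows) in each library (columns, CAPZ_KO left of WT) minus the mean over the WT libraries; red is above and blue below the WT mean. Stab1, Lyve1, Pecam1, Cdh5 and Rspo3 lie above the WT mean in all 4 CAPZ_KO columns, and the WT 1 column is blue for every gene but Wnt2 and Rspo3.

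To set the genes against the amount of other endothelial transcripts, each library was scaled to its summed counts of 20 endothelial genes, none of them on the list. That sum was similar in both groups, at 388.7, 433.9, 446.1 and 503.8 CPM in CAPZ_KO and 405.0, 501.0, 464.7 and 483.6 CPM in WT. Its largest parts in WT were Eng, Ptprb and S1pr1, with means of 95.8, 91.0 and 63.8 CPM. In CAPZ_KO these were at 103.7, 67.5 and 35.6 CPM, and of them only S1pr1 was called, as lower under TMM. The sum thus rests most on a few abundant genes that did not change alike. Relative to it Lyve1, Pecam1 and Cdh5 were called higher and 0 lower, against 22.3% of genes tested called higher, 13.4% lower and 35.8% in either direction. Pecam1 was 9.76 ± 0.611% of the summed endothelial counts in CAPZ_KO and 6.34 ± 0.144% in WT (log2 fold change 0.62 ± 0.135 SE, adjusted p = 0.00364 by edgeR). Cdh5 was 17.2 ± 2.07% in CAPZ_KO and 9.64 ± 2.75% in WT (0.83 ± 0.211, adjusted p = 0.00880 by edgeR). Lyve1 was 7.68 ± 3.39% in CAPZ_KO and 4.02 ± 1.06% in WT (0.93 ± 0.293, adjusted p = 0.0283 by edgeR). The Lyve1 call was lost without CAPZ_KO 4, WT 1, WT 2 or WT 3 (adjusted p 0.0544 to 0.0746). It was also lost when the geometric mean of the 20 genes replaced their sum (0.75, adjusted p = 0.0701 by edgeR). Stab1 was 14.4 ± 2.36% in CAPZ_KO and 10.8 ± 0.646% in WT, apart in all libraries but with an adjusted p of 0.0540. Such a ratio shows unequal change and not which of its sides changed. Scaled to Cdh5 alone, 0 of the other 9 genes were higher, and Clec4g (-1.02), Kdr (-0.96) and Wnt2 (-1.04 on the log2 scale) were lower. This scaling moved the median of all genes to -0.87, and these values lay near that shift.

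**Figure D3:**
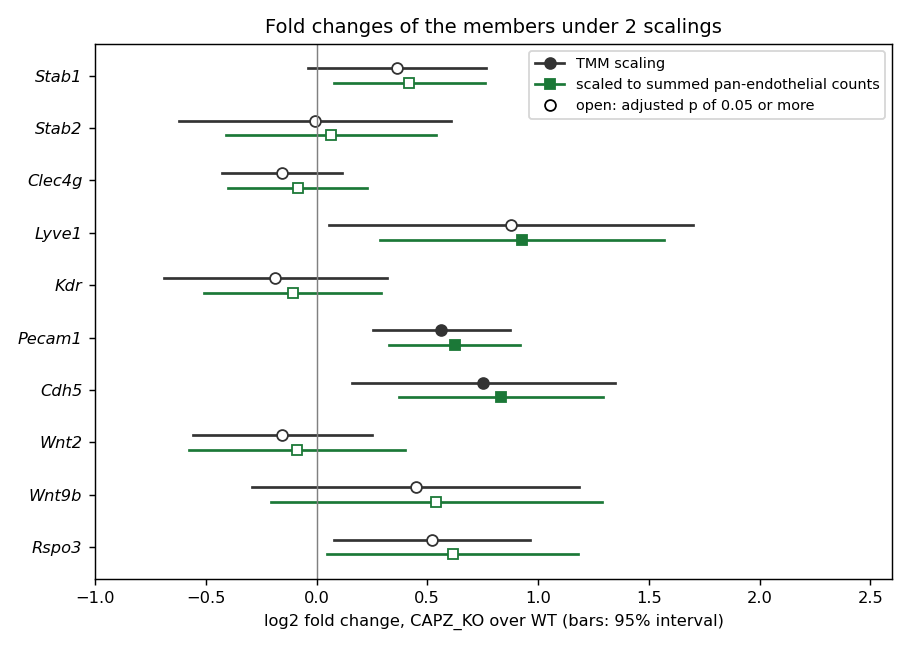
Log2 fold change, CAPZ_KO over WT, of each gene with its 95% interval, under TMM scaling (black circles) and relative to the summed counts of 20 endothelial genes (green squares); filled symbols have an adjusted p under 0.05. Pecam1 and Cdh5 are filled under both scalings and Lyve1 under the endothelial scaling only, while the intervals of Stab2, Clec4g, Kdr, Wnt2 and Wnt9b cross 0 under both.

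Among the 20 general endothelial genes 4 were higher, 1 was lower and 15 were not called, with a median log2 fold change of 0.12. Without CAPZ_KO 3 the count of higher genes was 2, and without WT 1 the count of lower genes was 2. The higher ones were Tie1 (log2 fold change 0.47, adjusted p = 0.0426), a receptor of the angiopoietin pathway, the transcription factors Fli1 (0.89) and Sox18 (0.84), and Nos3 (0.64, adjusted p = 0.0163), the endothelial nitric oxide synthase. The Tie1 call was lost without CAPZ_KO 2, CAPZ_KO 3, CAPZ_KO 4, WT 1, WT 3 or WT 4 (adjusted p 0.0744 to 0.121) and the Nos3 call without CAPZ_KO 3 (0.0621). S1pr1, a sphingosine phosphate receptor, fell to 35.6 ± 3.62 CPM in CAPZ_KO, against 63.8 ± 12.2 CPM in WT (log2 fold change -0.84, adjusted p = 0.00189 by edgeR), though not by library size alone (-0.21, adjusted p = 0.261). Tek (-0.25, adjusted p = 0.132), Erg (-0.03, adjusted p = 0.924), Emcn (0.28, adjusted p = 0.230), Eng (0.11, adjusted p = 0.549) and Flt1 (-0.38, adjusted p = 0.292) did not pass.

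Of 14 further sinusoidal genes 2 were higher, 1 was lower and 11 were not called, with a median of 0.02. The count of lower genes was 3 without CAPZ_KO 4, 2 without WT 1, and 2 by DESeq2 or limma-voom. Flt4, the receptor for VEGF-C, rose to 64.8 ± 13.3 CPM in CAPZ_KO, against 35.3 ± 6.52 CPM in WT (log2 fold change 0.88, adjusted p = 0.00387 by edgeR). Bmp6, the endothelial signal that sets hepcidin in hepatocytes, rose to 15.1 ± 4.84 CPM in CAPZ_KO, against 4.13 ± 2.16 CPM in WT (1.84 ± 0.409 SE, adjusted p = 0.00565 by edgeR). Exons of Bmp6 overlap those of Txndc5 on the opposite strand, and the strand setting of the counts is not known. Dnase1l3, a secreted DNase, fell to 79.4 ± 6.97 CPM in CAPZ_KO, against 115.7 ± 12.0 CPM in WT (-0.54, adjusted p = 0.00563 by edgeR), although by library size alone its value was 0.08. Gpr182 (0.09), Fcgr2b (-0.15), Mrc1 (0.40), Gata4 (0.31), F8 (-0.64) and Bmp2 (-0.32), all known from sinusoidal cells, had adjusted p-values of 0.104 to 0.638. Without WT 1, where F8 was far below the other WT libraries, F8 was called lower (-0.88, adjusted p = 0.00354), and without WT 2 Gata4 was called higher (0.43, adjusted p = 0.0403). Sinusoidal identity genes gave calls in both directions, as the general endothelial genes did. Neither list exceeded the share over all genes tested, 22.4% higher and 19.0% lower.

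Genes of other liver vessels gave calls in 1 direction, where 22.4% of all genes tested were called higher and 19.0% lower. In the central vein list 3 of 5 were higher and 0 lower, with a median of 1.19 and sums of 33.3 to 41.7 CPM in CAPZ_KO and 19.0 to 25.5 CPM in WT. Thbd, which encodes thrombomodulin, rose to 15.9 ± 3.56 CPM in CAPZ_KO, against 6.92 ± 0.880 CPM in WT (log2 fold change 1.20 ± 0.193 SE, adjusted p = 0.000912 by edgeR). Lhx6 (1.19), a transcription factor, and Selp (1.48), the gene of the leukocyte adhesion protein P-selectin that platelets also hold, rose too. Kit was at 0.07 (adjusted p = 0.807) and Cdh13 at -0.31 (adjusted p = 0.598 by edgeR). Of 6 portal and arterial genes 2 were higher and 0 lower: Msr1 (1.42), a scavenger receptor that macrophages also make, and Sox17 (0.94, adjusted p = 0.0224), an arterial transcription factor. The Sox17 call was lost without CAPZ_KO 2, CAPZ_KO 3 or WT 2 (adjusted p 0.0632 to 0.0709). Efnb2 (-0.12, adjusted p = 0.712) and Dll4 (0.18, adjusted p = 0.550), ligands of arterial endothelium, did not pass.

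Genes of capillary-type endothelium and its basement membrane were higher for 6 of 7 tested and lower for 0, with a median of 0.93. Their sums were 419.6 to 518.8 CPM in CAPZ_KO and 145.9 to 197.3 CPM in WT. Plvap, which forms the diaphragms of capillary pores, rose to 125.7 ± 7.16 CPM in CAPZ_KO, against 67.7 ± 4.00 CPM in WT (log2 fold change 0.89 ± 0.107 SE, adjusted p = 0.000180 by edgeR). Cd34, a surface sialomucin of capillary endothelium, rose to 10.9 ± 0.822 CPM in CAPZ_KO, against 5.73 ± 2.26 CPM in WT (0.93, adjusted p = 0.0160 by edgeR). Vwf, which encodes von Willebrand factor, was at 0.60 (adjusted p = 0.0693). The other 4 higher genes, Col4a1 (2.06), Col4a2 (1.83), Lamb1 (1.00) and Hspg2 (0.68), encode basement membrane proteins that stellate cells and fibroblasts also make. Exons of Col4a1 and Col4a2 overlap on opposite strands. Apln and Aplnr had at most 3 counts in any library and were not tested. Stellate and fibroblast markers, given beside Rspo3, were also higher in CAPZ_KO, and their part in the levels of these genes was not tested. The Kupffer cell, monocyte, platelet, stellate, central vein, portal and capillary lists each held 0 genes that were lower at an unadjusted p under 0.05 by edgeR.

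**Figure D4:**
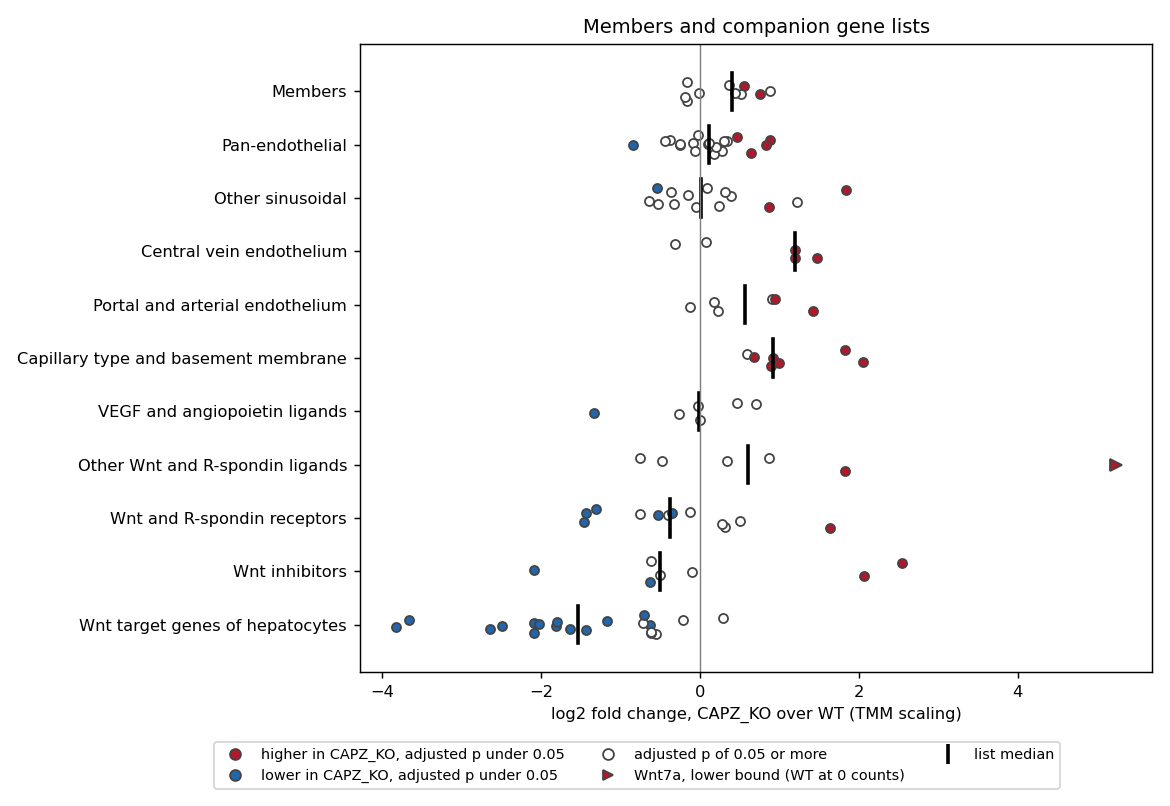
Log2 fold change, CAPZ_KO over WT under TMM scaling (x axis), of every tested gene (points) in the described list and in 10 companion lists (rows), with the list median as a black bar; red points passed as higher and blue points as lower in CAPZ_KO (threshold 0.05), and Wnt7a is drawn at its lower bound. The median is 0.41 for the described genes, 0.12 for general endothelial genes, 0.93 for capillary-type genes and -1.53 for Wnt target genes.

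Genes needed to send and receive the Wnt signals differed in both directions. Wls, which carries Wnt proteins to the surface of the cell that makes them, rose to 17.4 ± 1.03 CPM in CAPZ_KO, against 9.37 ± 1.36 CPM in WT (log2 fold change 0.88 ± 0.141 SE, adjusted p = 0.000848 by edgeR). Porcn, which attaches the lipid that Wnt proteins need, was at -0.63 (adjusted p = 0.0532). It was called lower by DESeq2 (adjusted p = 0.0356), by limma-voom (0.0459), and without CAPZ_KO 4 (0.0361) or WT 4 (0.0414). Of 20 other Wnt and R-spondin ligands 6 were tested, 2 of these were higher and 0 lower. Wnt4 rose to 11.3 ± 3.67 CPM in CAPZ_KO, against 3.19 ± 1.33 CPM in WT (1.83, adjusted p = 0.00220 by edgeR). Wnt7a had 165 counts over the CAPZ_KO libraries and 0 over the WT libraries, at least 37.9-fold higher against a floor of 3 counts over the WT group (adjusted p = 0.00102 by edgeR). Wnt5a (0.88), Wnt5b (-0.48), Wnt9a (0.34) and Rspo1 (-0.75) had adjusted p-values of 0.158 to 0.396.

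On the receiving side, 1 of 12 tested Wnt and R-spondin receptors was higher (2 without WT 3) and 5 were lower. Lgr4, the R-spondin receptor of hepatocytes, fell, with 30.8, 25.3, 25.7 and 22.5 CPM in CAPZ_KO and 66.8, 57.4, 96.0 and 65.5 CPM in WT. These groups were far apart, at a log2 fold change of -1.45 ± 0.176 (SE, adjusted p = 0.000193 by edgeR). Lgr5, its pericentral relative, fell to 1.69 ± 0.650 CPM in CAPZ_KO, against 4.57 ± 1.62 CPM in WT (-1.43, adjusted p = 0.00784 by edgeR), but by library size alone it was not called (-0.79, adjusted p = 0.0747). Fzd8 (-1.31), a Frizzled receptor, also fell. The Wnt co-receptor Lrp6 (-0.53) and the receptor kinase Ryk (-0.35) were called lower under TMM, but by library size alone they were at 0.09 and 0.28. Ryk lost the call without CAPZ_KO 2, CAPZ_KO 3, CAPZ_KO 4, WT 3 or WT 4 (adjusted p 0.0532 to 0.0886). Fzd3 was higher (1.64, adjusted p = 0.00985 by edgeR) at a level under 1 CPM. Fzd4 (-0.75), Fzd5 (0.51), Fzd7 (-0.40) and Lrp5 (0.28) had adjusted p-values of 0.0547 to 0.197. Without WT 1, Fzd4 (-1.06, adjusted p = 0.0196) and Fzd7 (-0.47, adjusted p = 0.0325) were called lower, and without WT 3 Fzd5 was called higher (0.85, adjusted p = 0.0247). DESeq2 also called Fzd7 lower (adjusted p = 0.0356).

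Inhibitors split as well, with 2 higher and 2 lower of 7 tested. Dkk3 (2.07) and the secreted Frizzled-related gene Frzb (2.55) rose, with adjusted p-values of 0.000162 and 0.000106 by edgeR. Notum, a secreted enzyme that removes the lipid from Wnt proteins and is itself a Wnt target, fell to 9.31 ± 1.63 CPM in CAPZ_KO, against 39.7 ± 11.2 CPM in WT (-2.09, adjusted p = 7.15e-05 by edgeR). Rnf43 and Znrf3, the ligases that R-spondins hold back, were at -0.62 (adjusted p = 0.0199) and -0.61 (adjusted p = 0.0505). Znrf3 was called lower without CAPZ_KO 1 (-0.83, adjusted p = 0.0140), by DESeq2 (0.0248) and by limma-voom (0.0394). By library size alone Rnf43 was at -0.002 and Znrf3 at 0.02.

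Hepatocyte genes that respond to the endothelial Wnt signals were lower for 14 of 20 tested and higher for 0, with a median log2 fold change of -1.53. Their sums were 1489 to 2659 CPM in CAPZ_KO and 13829 to 18606 CPM in WT, but Cyp2e1 alone made up 21.9% to 35.2% of the sum in CAPZ_KO and 55.2% to 62.8% in WT. Without Cyp2e1 the sums were 1104 to 1736 CPM in CAPZ_KO and 5138 to 7033 CPM in WT, 13 of 19 genes were lower, and the median was -1.43. Glul, which encodes glutamine synthetase (-2.08, adjusted p = 0.00129), Cyp2e1, a cytochrome P450 (-3.83, adjusted p = 4.70e-05), Oat, an aminotransferase of ornithine (-2.49, adjusted p = 0.000212), and the transcription factor Tbx3 (-1.81, adjusted p = 0.00237) fell by edgeR. Among members of the Wnt pathway that are also its targets, Lgr5, Notum and Rnf43 were called lower, with the values given above, while Axin2 was at -0.56 (adjusted p = 0.105), Nkd1 at 0.29 (adjusted p = 0.205) and Sp5 at -0.61 (adjusted p = 0.164). Rhbg, an ammonia transporter, was at -0.71 (adjusted p = 0.0527), and it was called lower without CAPZ_KO 2, WT 2 or WT 3 (adjusted p 0.0291 to 0.0467) and by DESeq2 (0.0251). General hepatocyte markers were lower for 10 of 11 tested and higher for 0, with a median of -1.42. The share of this fall in the levels of the Wnt targets, of Lgr4 and of Vegfa was not tested. Beside these values, the ligand genes Wnt2, Wnt9b and Rspo3 were at -0.16, 0.45 and 0.52, none of them called by edgeR under TMM.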

How the data were processed

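Poly(A) RNA of perfused mouse livers was sequenced from stranded libraries, per the labels' protocols, in 4 CAPZ_KO and 4 WT libraries. The table the authors deposited holds whole-number read counts for each gene symbol and library, with no scaling. The submitters' processing notes name build mm10 and the tools STAR 2.5.3a, featureCounts, bcl2fastq, edgeR and R 3.3.1. Which annotation and strand setting they used is not given in the sources used here, so reads of overlapping genes on opposite strands cannot be told apart. This touches Stab1, Stab2, Clec4g and Rspo3, and among other called genes Bmp6, Nos3, Selp, Sox17, Cd34, Notum, Glul, Tbx3 and Tcf7l1, whose exons overlap an opposite-strand gene in GENCODE vM21. Positions and exon lengths come from GENCODE vM21 on GRCm38, the assembly of mm10.

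Genes were kept by filterByExpr of edgeR 4.0.16 (minimum count 10, minimum total 15) in R 4.3.3. TMM scaling gave factors of 1.18 to 1.33 for CAPZ_KO and 0.774 to 0.847 in WT. All 8 libraries were fitted together, with no covariate, by edgeR's quasi-likelihood method (robust setting), and p-values were Benjamini-Hochberg adjusted over the 12985 genes tested, with a threshold of 0.05; in an alternative they were adjusted over the genes that it tested. The standard error of a log2 fold change was derived from the F statistic, and intervals are 95%. The common biological coefficient of variation was 24.9%. A further fit scaled each library to its summed counts of 20 endothelial genes. Capzb was tested by permutation of log2(CPM + 1). The gene-wise edgeR step was tested on simulated data. No libraries were duplicates: between replicates, chi-square per degree of freedom was 26.4 to 153.3.

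The 10 genes, the 20 companion lists and the rule for the named genes were chosen with earlier results of these data known. The rule took all 10 genes, named genes of known role in each endothelial and Wnt list, every other tested Wnt or R-spondin ligand, and the called genes of a companion list where 5 or fewer were called in a direction. Col4a1, Col4a2, Lamb1, Hspg2, Apln, Aplnr, Ccl21a, Ptprb, Cdh13 and the Wnt genes with too few counts fall outside it and were named after their values were seen. No companion list holds any of the 10 genes, but lists share genes with each other: Flt4 is in the sinusoidal and lymphatic lists, Reln in the stellate and lymphatic lists, Spp1 in the monocyte and cholangiocyte lists, Cyp2e1 in the hepatocyte and Wnt target lists, and several Wnt genes in more than 1 Wnt list. Alternatives were other scalings, no filter on low counts, DESeq2 1.42.0, limma 3.58.1 with voom, a non-robust dispersion prior, a replicate block, sex as a term and each library left out in turn.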

Additional observations from a re-analysis of the deposited data

Results flagged for a closer look

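Of 161 groups of 4 libraries examined, 1 library stood apart from the other 3 by Dixon's criterion in 7, and chance alone flags about 1 group in 20. Among the described genes, Rspo3 was at 11.6 CPM in CAPZ_KO 1, against 6.83 to 7.52 CPM in the other CAPZ_KO libraries. Wnt2 was at 7.26 CPM in CAPZ_KO 3, against 5.73 to 5.81 CPM in the other CAPZ_KO libraries.

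In the companion lists, WT 1 stood apart for 3 genes. It held 6.65 CPM of Flt1, against 10.8 to 11.1 CPM in the other WT libraries, 14.7 CPM of the coagulation factor gene F8, against 36.8 to 39.8 CPM, and 4.29 CPM of Nos3, against 3.69 to 3.75 CPM. WT 2 held 1.25 CPM of Selp, against 0.852 to 0.908 CPM in the other WT libraries. WT 4 held 61.6 CPM of Ryk, against 48.7 to 50.7 CPM in the other WT libraries.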

How the results depend on the processing

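Scaling by library size alone changed most: it called 7 of the 10 genes higher, with 7665 of all genes higher and 700 lower, and Capzb was at -0.10 (adjusted p = 0.442). Log2 fold changes that turned positive under it were Stab2 0.60, Clec4g 0.46, Kdr 0.42, Wnt2 0.47, Tek 0.37, Erg 0.59, Flt1 0.23, Fcgr2b 0.46, Bmp2 0.29, Efnb2 0.49, Vegfb 0.61, Angpt2 0.34, Lrp6 0.092, Fzd7 0.23, Znrf3 0.023, Tcf7l2 0.49, Axin2 0.071, Sp5 0.0054, Wnt5b 0.12, Dnase1l3 0.078 and Ryk 0.28, in the direction of that scaling's shift of 0.62 in the median gene. It also called 15 of 20 general endothelial genes higher and 0 lower. Stab2, Erg and Vegfb, all near 0, turned to 0.075, 0.056 and 0.057 with upper-quartile factors, and Stab2 and Vegfb to 0.013 and 0.032 with limma-voom. Upper-quartile factors also called Rspo3 (adjusted p = 0.0369 by edgeR) and Vwf (0.0451) higher, and Ryk lost its call (0.102). With no filter on low counts 1 of the 10 genes was called higher. With each library left out in turn 1 to 2 were called higher (1 without CAPZ_KO 2, 3 or 4 or WT 1, 3 or 4), and 0 were lower under every alternative to the TMM fit. Genes whose sign turned when a library was left out ranged from -0.22 to 0.11 (Stab2), -0.17 to 0.050 (Erg), -0.017 to 0.14 (Gpr182), -0.044 to 0.53 (Mrc1), -0.20 to 0.087 (Vegfb), -0.0033 to 0.17 (Eng), -0.12 to 0.18 (Kit), -0.24 to 0.051 (Tcf7l2), -0.28 to 0.0010 (Fcgr2b) and -0.26 to 0.064 (Efnb2).

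Same-numbered libraries had correlations of deviations of 0.25, 0.016, 0.068 and 0.30. Those of replicates 1 and 4 were the highest of all CAPZ_KO and WT pairs. CAPZ_KO 2 correlated best with WT 4, and CAPZ_KO 3 with WT 1 (0.082). CAPZ_KO 4 and WT 4 were also the libraries with Xist and no Y-linked counts. The labels do not say whether the shared numbers pair the libraries. With the replicate number as a block 3 of the 10 genes were called higher: Lyve1 (adjusted p = 0.0212 by edgeR), Pecam1 (0.00829) and Cdh5 (0.00412). Over all genes 2974 were higher and 2411 lower. Stab2 was at 0.015 and Vegfb at 0.0017, 11 Kupffer cell markers were higher, and 3 of the 14 further sinusoidal genes were lower. F8 (adjusted p = 0.0317) and Rhbg (0.0298) were called lower, and Ryk lost its call (0.0527). Porcn (0.0484), Fzd7 (0.0451), Znrf3 (0.0412) and Rhbg (0.0460) were also called lower with RLE size factors.

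Relative to endothelial counts, 2 to 4 of the 10 genes were higher with a library left out, when Stab2 ranged from -0.095 to 0.17 and Wnt2 from -0.19 to 0.051. With the geometric mean of the 20 genes, 2 were higher, Pecam1 and Cdh5 but not Lyve1, and Stab2 was at -0.12. Scaled to Cdh5 alone 0 were higher and 3 lower, with the median of all genes at -0.87. Stab1 was then at -0.51, Stab2 at -0.79, Pecam1 at -0.31, Rspo3 at -0.29 and Wnt9b at -0.28. The cause of these changes was not tested. Depth limits Wnt9b most, at 9 to 48 counts per library.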

Other observations

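Several Wnt genes lay below the filter on low counts and were not tested. Wnt7b had 6 to 17 counts per library in CAPZ_KO and 1 to 4 in WT. The secreted inhibitor Sfrp1 had 7 to 32 counts in CAPZ_KO and 4 to 10 in WT. Rspo2, Rspo4, Wnt3a, Wnt8a and Wnt8b had 0 counts in every library. Of the genes in the cytoplasmic and nuclear part of the Wnt pathway 1 of 11 tested was called higher and 0 lower, with a median log2 fold change of 0.002; at an unadjusted p under 0.05 edgeR gave 3 higher and 0 lower. The called gene was Tcf7l1 (0.75, adjusted p = 0.00533 by edgeR), a repressor of the TCF family. Ctnnb1, which encodes beta-catenin, was at 0.31 (adjusted p = 0.135) and Tcf7l2 at -0.13 (adjusted p = 0.625).

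Of 10 cholangiocyte markers 7 were higher and 0 lower, with a median of 3.06. Of 9 T, NK and B cell markers 0 were called higher and 0 lower by edgeR, 0 passed an unadjusted p under 0.05, and the median was -0.14.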
